A study of Mus musculus with 12 samples.

Results

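The tubulin and actin probes described here are the array spots annotated to Tubb4b and Tubb2b, which encode beta-tubulins, and to Actg1 and Actb, which encode the cytoplasmic gamma- and beta-actins. The symbols were chosen by their measured log2 ratios 6 h after dosing, and every spot annotated to them was then taken if its background-corrected intensity was above 0 in both dyes on all 12 arrays. Of 15 annotated spots, 14 met this rule, among 11749 such probes and 23040 spots in all: 3 for Tubb4b, 1 for Tubb2b, 2 for Actg1 and 8 for Actb. The 4 genes are among 5691 with at least 1 such probe of a single symbol. The remaining Actb spot, number 19275, was above 0 in both dyes on 6 of the 12 arrays and was left out. The lowest corrected intensity among the included spots was 490, at Tubb4b spot 16829. Because the 6 h ratios chose the symbols, they are given below as a description without a test, and tests are confined to 12 h, 24 h, the difference between these times, and the dye effect.

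Livers were taken from mice killed 6, 12 or 24 h after bulaquine, an antimalarial prodrug of primaquine, and from mice given vehicle. Labelled cDNA from bulaquine and from vehicle liver was hybridised together on a spotted cDNA array, with 4 arrays per time point. The design text gives 4 mice per group, and the sources used here do not say how mice map to arrays or whether RNA was pooled. Bulaquine RNA carried Cy5 on the arrays labelled F1 and F2 and Cy3 on those labelled R1 and R2. Strain, sex, age, dose and the harvest time of the vehicle mice were not given in the labels, nor whether F and R arrays share RNA, so a p-value here rests on array-to-array spread, some of which may be technical.

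Tubulin alpha and beta chains pair into the dimers that build microtubules, the tracks of vesicle transport and of the mitotic spindle. Beta- and gamma-actin polymerise into the filaments that line the bile canaliculi of hepatocytes and drive the movement of macrophages and stellate cells. Transcription of actin genes is known to be driven by serum response factor through CArG boxes in their promoters, and free tubulin dimers are known to trigger decay of tubulin mRNA. In whole liver, fewer cells of a type and less RNA per cell cannot be told apart.

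In the GRCm38.p6 annotation, Tubb4b lies at chr2:25222158-25224702, Tubb2b at chr13:34127008-34130354, Actg1 at chr11:120345687-120348495 and Actb at chr5:142903115-142907976. RefSeq promoter windows were matched for 2 of the 4 genes, Tubb4b and Actg1. The 250 bases before each start, on the minus strand, are shown to set a beta-tubulin promoter beside an actin promoter, with CCAAT boxes (letters CCAAT) and the CArG box in capitals. The Tubb4b window is chr2:25224703-25224952 and the Actg1 window chr11:120348496-120348745.
Tubb4b: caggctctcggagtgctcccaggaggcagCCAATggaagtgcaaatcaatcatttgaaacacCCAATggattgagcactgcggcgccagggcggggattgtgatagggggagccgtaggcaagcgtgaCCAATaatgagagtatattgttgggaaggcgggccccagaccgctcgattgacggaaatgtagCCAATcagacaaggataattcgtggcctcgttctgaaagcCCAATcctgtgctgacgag
Actg1: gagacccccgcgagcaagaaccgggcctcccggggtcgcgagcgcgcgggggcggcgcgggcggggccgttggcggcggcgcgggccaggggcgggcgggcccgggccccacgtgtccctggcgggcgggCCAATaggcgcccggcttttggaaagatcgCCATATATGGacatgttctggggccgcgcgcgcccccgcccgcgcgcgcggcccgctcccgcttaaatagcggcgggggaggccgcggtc

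Both strands were searched, and no match of one motif overlapped a match of another. The Tubb4b window held 5 CCAAT boxes, their first bases 221, 188, 122, 59 and 19 bases before the start, and no CArG box. The Actg1 window held 1 CArG box, 90 to 81 bases before the start, and 1 CCAAT box with its first base at 120. Among all 32851 windows of 250 bases, 33.8% held a CCAAT box, 1.47% a CArG box and 12.4% the letters TATAAA, which neither window shown here held. Windows with 5 or more CCAAT boxes on the gene's strand numbered 15, or 0.0457%.

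The arrays resolved these probes unevenly. Between 9.66% and 24.5% of spots per array had a corrected intensity of 0 in a dye, most on the 12 h F2 array, and the median SE of a fitted time point over all tested probes was 0.22 on the log2 scale. The 5 measured hepatocyte markers sat high in brightness, with Alb at percentile 99.97, Apoa1 at 99.1 and Ttr at 97.8 of the tested probes. Ass1 lay at 92.7 and Tdo2 at 84.3. The tubulin probes lay near the middle, at percentiles 46.4 to 52.2, with a median signal-to-noise ratio between 1.89 and 2.67. Actb spots 12482, 13443 and 7222 lay at percentiles 96.5, 95.7 and 93.8, the other 5 Actb spots between 63.9 and 84.6, and the Actg1 spots 18947 and 21680 at 71.2 and 66.1. The brightest of all, Actb spot 12482, reached at most 16.4% of the brightest spot on the same array in the same dye. Actin and tubulin coding sequences are much alike within each family, and probe sequences were not used here, so a spot's signal may include related transcripts. Brightness also depends on the cDNA printed, so it orders spots and not transcript levels.

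At 6 h after dosing, 13 of the 14 probes had a fitted log2 ratio of bulaquine over vehicle below 0, with a median of -0.54, while 50.1% of all tested probes were below 0 and their median was -0.0006. Of the 14, 8 were below 0 on all 4 arrays, namely 6 Actb spots, Actg1 spot 18947 and Tubb4b spot 16829. The share of all tested probes below 0 on 4 of 4 arrays was 5.81%. These counts restate the values that chose the symbols.

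Among the tubulins, Tubb4b, a broadly expressed beta-tubulin, was measured by 3 spots that list the same accession. Spot 510 had log2 ratios of -1.40 and -1.52 with bulaquine in Cy5 (F1, F2) and 0.30 and 0.45 with bulaquine in Cy3 (R1, R2) at 6 h. Spot 1470 had -0.02 and -1.11 on the F arrays and -0.09 and 0.77 on the R arrays. Spot 16829 had -1.48, -0.73, -0.46 and -0.78 in the same order. Only spot 16829 was below 0 in both dye orientations on every 6 h array, while the 2 orientations of spot 510 did not overlap. The fitted 6 h log2 ratios were -0.54 ± 0.11 (SE, n = 4) for spot 510, -0.11 ± 0.28 for spot 1470 and -0.86 ± 0.26 for spot 16829, the last a bulaquine level 0.55 times that of vehicle.

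Tubb2b, a beta-tubulin best known from developing neurons, was measured by spot 2558. Its 6 h log2 ratios were -1.56 and -1.74 on the F arrays and -0.10 and 0.59 on the R arrays. The F and R values lay on either side of a wide gap, and the fitted value was -0.70 ± 0.17 (SE, n = 4), with an SD of 1.13 between the 4 arrays.

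The 2 Actg1 spots did not move alike at 6 h. Spot 18947 had log2 ratios of -0.66, -0.86, -0.30 and -0.33 (F1, F2, R1, R2), all below 0. Spot 21680 had 0.39 and 0.24 on the F arrays and -0.38 and -0.36 on the R arrays, so that its sign followed the dye. Their fitted 6 h log2 ratios were -0.54 ± 0.14 and -0.03 ± 0.11 (SE, n = 4 each).

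The 8 Actb spots list a single accession, whose correctness for each spot was not tested, and are given as the 3 brightest and the 5 others, a split made after seeing the data. Of the others, spot 7764 had 6 h log2 ratios of -0.59, -0.79, -0.88 and -0.73 (F1, F2, R1, R2). Spot 7206 had -0.80, -0.54, -0.87 and -0.63, and spot 12968 had -0.75, -0.70, -0.93 and -0.44. Each of these values was below 0, with no gap between the dye orientations. Spot 8197 ranged from -0.90 to -0.33 and spot 21195 from -1.05 to -0.42 over the same arrays. The fitted 6 h log2 ratios of these 5 spots ran from -0.75 to -0.53, a bulaquine level 0.596 to 0.691 times that of vehicle.

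The 3 brightest Actb spots gave smaller ratios. Spot 7222 had -0.08, -0.05, -0.75 and -0.60 at 6 h and a fitted value of -0.37 ± 0.09 (SE, n = 4). Spot 12482 had 0.14 and 0.10 on the F arrays and -0.29 and -0.46 on the R arrays, fitted at -0.13 ± 0.10. Spot 13443 had 0.75 and 0.59 on the F arrays and -0.40 and -0.30 on the R arrays, fitted at 0.16 ± 0.11, and was the 1 probe of the 14 above 0 at this time. With normexp background correction in place of local subtraction, the 6 h median of the 14 probes was -0.27, against -0.54.

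**Figure D1:**
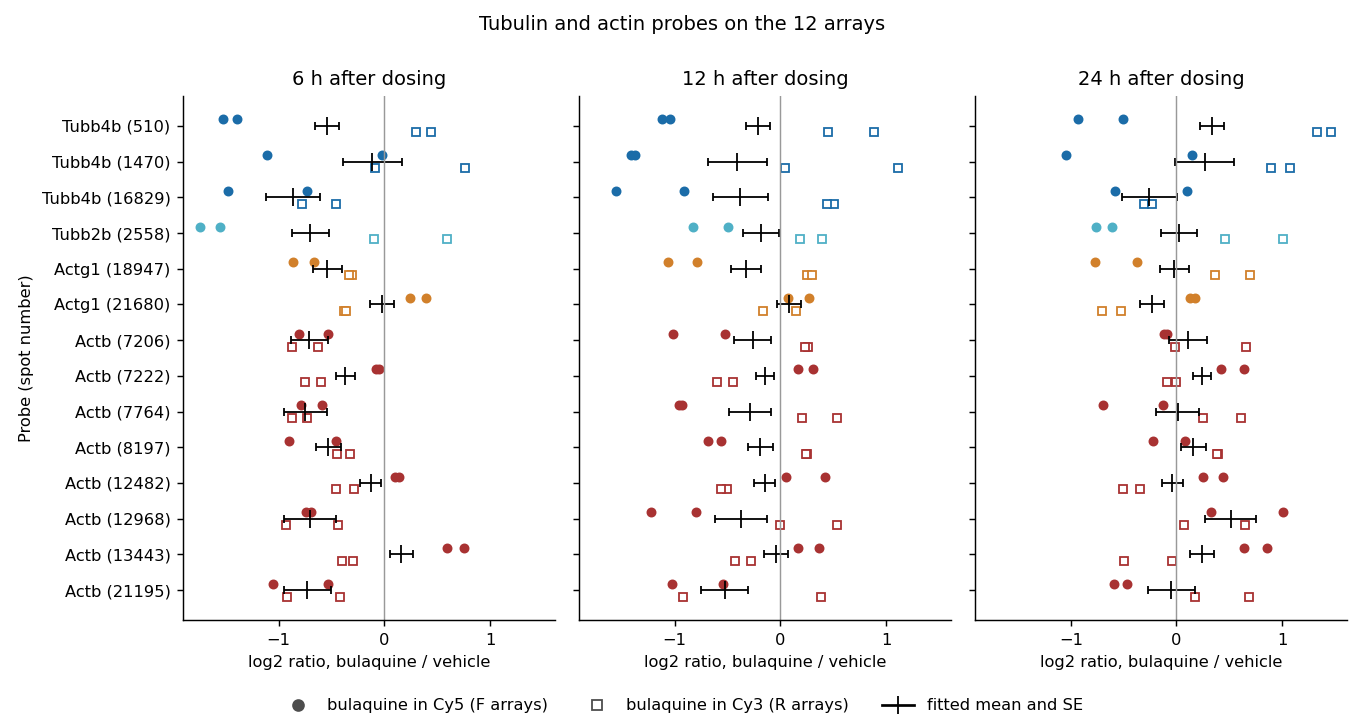
Log2 ratios of bulaquine over vehicle (x axis) for each of the 14 tubulin and actin probes (rows, with the spot number) at 6, 12 and 24 h. Filled circles are arrays with bulaquine in Cy5, open squares arrays with bulaquine in Cy3, and black bars the fitted mean with its SE; at 12 h circles and squares lie on opposite sides of 0 for 13 of the 14 probes when averaged.

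At 12 h none of the 14 probes passed the test, and 54 of all 11749 tested probes did, 0.46% (limma, Benjamini-Hochberg adjusted p under 0.05 over all tested probes). At an unadjusted p under 0.05, limma counted 2 of the 14 (Actg1 spot 18947 and Actb spot 21195), and 8.6% of all tested probes. The fitted log2 ratio lay below 0 for 13 of the 14, as it did for 52.2% of all tested probes, with a median of -0.24 against -0.01 over all. Under normexp background correction the 12 h median of the 14 was 0.0006, and 7 of 14 lay below 0. All 4 tubulin probes and Actb spots 13443 and 21195 changed sign there, Actb spot 21195 to 0.023 against -0.52 and Tubb4b spot 1470 to 0.076 against -0.41.

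The arrays behind the 12 h values split by dye. Tubb4b spot 510 had log2 ratios of -1.12 and -1.04 on the F arrays and 0.88 and 0.45 on the R arrays. Tubb2b spot 2558 had -0.50 and -0.82 on the F arrays and 0.40 and 0.18 on the R arrays. For each of these tubulin probes the F arrays gave a lower bulaquine signal and the R arrays a higher one. The other Tubb4b spots did the same, spot 1470 with -1.42, -1.38, 1.11 and 0.05 and spot 16829 with -0.91, -1.56, 0.51 and 0.44.

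Actg1 spot 18947 followed that split at 12 h, with -1.06 and -0.79 on the F arrays and 0.25 and 0.30 on the R arrays, and a fitted value of -0.33 ± 0.14 (SE, n = 4; limma adjusted p = 0.58). Actb spot 7764 had -0.94 and -0.96 on the F arrays and 0.53 and 0.21 on the R arrays. Actb spot 12482, the brightest, ran the other way, with 0.05 and 0.42 on the F arrays and -0.50 and -0.56 on the R arrays. Spots 7222 and 13443 shared that opposite sense, being above 0 on both F arrays and below 0 on both R arrays. Fitted 12 h values over the 8 Actb spots ran from -0.52 (spot 21195) to -0.04 (spot 13443), and the smallest adjusted p among the 14 probes was 0.58 (limma). None of the 14 was below 0 on all 4 arrays at 12 h, while 6.32% of all tested probes were.

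At 24 h the fitted log2 ratio was above 0 for 9 of the 14 probes and below 0 for 5, with a median of 0.07, while 49.1% of all tested probes were below 0. None of the 14 passed the test, beside 56 of all tested probes, or 0.477% (limma adjusted p under 0.05). At an unadjusted p under 0.05, limma counted 2 of the 14, and 13.1% of all tested probes. None of the 14 lay below 0 on all 4 arrays, against 8.78% of all tested probes, and 1 lay above 0 on all 4, against 6.52%.

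That 1 probe was Actb spot 12968, with 24 h log2 ratios of 1.01, 0.33, 0.07 and 0.65 (F1, F2, R1, R2). All 4 were above 0 but spread widely, and the fitted value of 0.51 ± 0.25 (SE, n = 4) had a limma adjusted p of 0.41 (0.34 under normexp, limma adjusted p = 0.23). Tubb4b spot 510 had -0.51 and -0.93 on the F arrays and 1.46 and 1.33 on the R arrays at 24 h. Its fitted value was 0.34 ± 0.11 (limma adjusted p = 0.27, the lowest of the 14), again from 2 orientations on opposite sides of 0. Without background correction it was 0.09 (limma adjusted p = 0.84), and under normexp 0.07 (limma adjusted p = 0.86). Actb spot 7222 had 0.64, 0.42, 0.00 and -0.09, fitted at 0.24 ± 0.09 (limma adjusted p = 0.29).

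Of the other tubulin probes, 1 was near 0 at 24 h and the other 2 lay on opposite sides of it. Tubb2b spot 2558 had -0.76 and -0.61 on the F arrays and 1.01 and 0.46 on the R arrays, fitted at 0.03 ± 0.17 (SE, n = 4; limma adjusted p = 0.98). Tubb4b spot 1470 had -1.05, 0.15, 0.90 and 1.07, fitted at 0.27 ± 0.28. Tubb4b spot 16829 had -0.58, 0.10, -0.31 and -0.23, fitted at -0.26 ± 0.26, so the 3 Tubb4b spots differed in sign.

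The Actg1 spots again ran against each other by dye at 24 h. Spot 18947 had -0.37 and -0.77 on the F arrays and 0.37 and 0.69 on the R arrays, fitted at -0.02 ± 0.14 (SE, n = 4; limma adjusted p = 0.98). Spot 21680 had 0.13 and 0.17 on the F arrays and -0.70 and -0.52 on the R arrays, fitted at -0.23 ± 0.11 (limma adjusted p = 0.44). Among the other Actb spots, spot 12482 had 0.44, 0.25, -0.34 and -0.51 and was fitted at -0.04 ± 0.10, and the rest lay between -0.05 and 0.24.

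In the 24 h minus 12 h difference of the log2 ratio, 13 of the 14 probes were above 0, with a median of 0.33, while 50.4% of all tested probes were below 0. Under normexp background correction the median of the 14 was 0.06 and 4 of them were below 0. None passed the test, beside 0.179% of all tested probes (limma adjusted p under 0.05), and 3 had an unadjusted p under 0.05, compared with 8.92% of all. The 3 were Tubb4b spot 510 (difference 0.55 ± 0.16 SE, limma adjusted p = 0.32), Actb spot 7222 (0.39 ± 0.12, limma adjusted p = 0.38) and Actb spot 12968 (0.89 ± 0.35, limma adjusted p = 0.49). Under normexp these differences were 0.0019 (Tubb4b spot 510), 0.32 (Actb spot 7222) and 0.36 (Actb spot 12968), and without background correction spot 510 had 0.29. Actg1 spot 21680 was the 1 probe with a difference below 0, at -0.31 ± 0.16. The 24 h minus 6 h difference, which holds the arrays that chose the symbols and so is given without a test, had a median of 0.65 and was above 0 for 13 of the 14. At 6 h, 12 of all tested probes passed, or 0.102%, and nothing is read from this for the 14.

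The dye effect, a component fitted to each probe over all 12 arrays, was tested separately from the drug effect. Of the 14 probes, 4 were called brighter in Cy5, beside 15.5% of all tested probes, and 5 brighter in Cy3, beside 13.5% (limma adjusted p under 0.05). Those brighter in Cy5 were the 3 brightest Actb spots, 13443 (log2 0.44 ± 0.07 SE), 12482 (0.34 ± 0.06) and 7222 (0.32 ± 0.05), together with Actg1 spot 21680 (0.27 ± 0.07). Those brighter in Cy3 were Tubb4b spots 510 (-0.95 ± 0.07) and 1470 (-0.72 ± 0.16), Tubb2b spot 2558 (-0.71 ± 0.10), Actg1 spot 18947 (-0.46 ± 0.08) and Actb spot 8197 (-0.27 ± 0.07). The remaining 5 probes, Tubb4b spot 16829 and 4 Actb spots, had dye effects of -0.36 to -0.17 that did not pass. Spots listing the same Actb accession thus had dye effects of both signs.

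**Figure D2:**
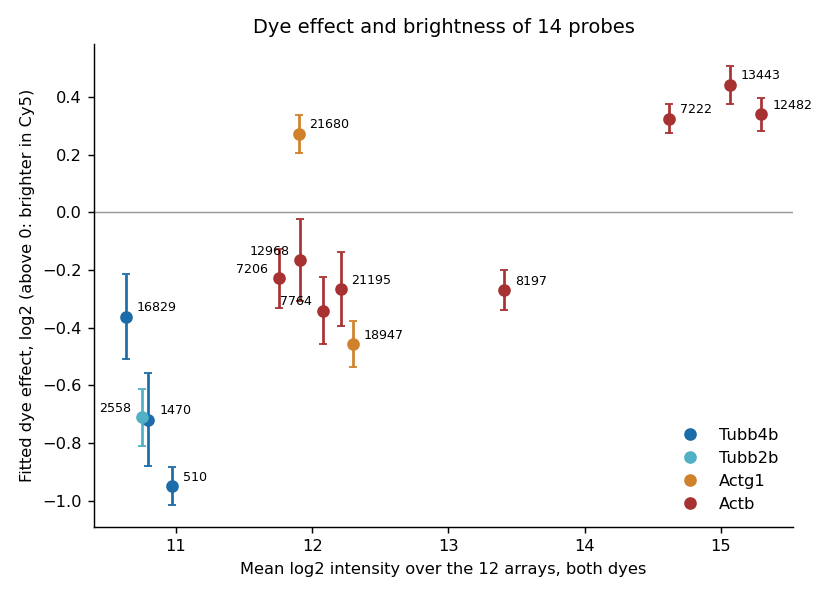
Fitted dye effect (y axis, log2, above 0 brighter in Cy5, bars are SE) against mean log2 intensity over the 12 arrays (x axis) for the 14 probes, coloured by gene and marked with the spot number. The 3 brightest Actb spots lie between 0.32 and 0.44, Actg1 spot 21680 at 0.27, and the other 10 probes below 0.

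The dye component, computed for each time, differed in its median over the 14 probes, and the difference was not tested. The mean over F arrays minus the mean over R arrays, divided by 2, had a median over the 14 probes of -0.04 at 6 h, -0.49 at 12 h and -0.22 at 24 h. The F and R means had opposite signs for 6 of the 14 probes at 6 h, 13 at 12 h and 12 at 24 h. For all tested probes the shares were 64.6%, 64.4% and 60.3%. The 6 h ratios chose the symbols, and a choice on low ratios favours probes below 0 in both orientations. Nothing is therefore read from the 6 h values beside the later ones. At 6 h the median of the 5 dimmer Actb spots was -0.59 and -0.79 on the F arrays and -0.87 and -0.63 on the R arrays. At 12 h the same median was -0.80 and -0.96 on the F arrays and 0.39 and 0.21 on the R arrays. At 12 h this median thus changed sign with the dye. The 6 h values chose the symbols, and the 5 spots were split off after seeing the data, so the times are not compared. A dye effect fitted for each time point, an alternative chosen after seeing the data, called none of the 14 probes at 12 h, at 24 h or in the 24 h minus 12 h difference.

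Levels in each channel, on the log2 intensity scale after scaling between arrays, show how far the 2 RNAs moved with the arrays' time point. In the vehicle channel, all 14 probes averaged higher on the 12 h arrays than on the 24 h arrays, with a median difference of 1.43, beside -0.02 over all tested probes. Against the 6 h arrays, 13 of 14 averaged higher at 12 h, with a median difference of 0.89, beside 0.01 over all. The labels do not give the harvest time of the vehicle mice, and time point and array run cannot be told apart. These differences were not tested.

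Tubb2b spot 2558 had bulaquine-channel levels of 10.09, 10.36, 11.59 and 11.56 at 6 h, 11.14, 11.21, 12.15 and 11.60 at 12 h, and 8.44, 8.93, 10.37 and 10.04 at 24 h (F1, F2, R1, R2). Its vehicle-channel levels were 11.65, 12.11, 11.68 and 10.96 at 6 h, 11.63, 12.03, 11.75 and 11.41 at 12 h, and 9.21, 9.54, 9.37 and 9.57 at 24 h. The 24 h vehicle values lay below every 6 h and 12 h vehicle value. The vehicle means were 11.60 ± 0.47, 11.71 ± 0.26 and 9.42 ± 0.17 (SD, n = 4 each), a 4.88-fold higher level at 12 h than at 24 h, and the bulaquine channel gave a 4.22-fold difference.

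The 3 Tubb4b spots had vehicle levels 5.29-fold (spot 1470), 4.33-fold (spot 510) and 4.05-fold (spot 16829) higher at 12 h than at 24 h. The corresponding folds in the bulaquine channel were 3.31, 2.97 and 3.72. In the vehicle channel none of these spots' 12 h values overlapped the 24 h values. The vehicle levels of the tubulin probes were low at 24 h, at mean brightness percentiles of 18.7 (Tubb2b spot 2558) to 30.9 (Tubb4b spot 510). Their lowest signal-to-noise ratios were 0.489 to 0.735. Levels were not recomputed under another background correction, so its part in the tubulin folds was not tested. Without overlap, 7 of the 14 probes were higher in the vehicle channel at 12 h than at 24 h, namely all 4 tubulin probes and Actb spots 7222, 7764 and 8197, beside 3.54% of all tested probes. Without overlap, 3 were higher at 12 h than at 6 h (Tubb4b spot 16829, Actb spots 7764 and 8197), beside 3.07%, and 2 higher at 6 h than at 24 h (Tubb2b spot 2558, Actb spot 7222), beside 3.61%.

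Mean Actb levels differed with time on most spots and hardly on spots 12482 and 13443. Spot 12968 averaged 12.83 ± 1.28 in bulaquine livers and 13.20 ± 1.07 in vehicle livers at 12 h, and 11.58 ± 1.19 in bulaquine livers and 11.07 ± 1.20 in vehicle livers at 24 h (SD, n = 4 each). Spot 12482 averaged 15.18 ± 0.39 in bulaquine livers and 15.33 ± 0.58 in vehicle livers at 12 h, and 15.25 ± 0.14 in bulaquine livers and 15.29 ± 0.36 in vehicle livers at 24 h. In the vehicle channel the 12 h level was 4.38 times the 24 h level at spot 12968 and 1.03 times at spot 12482, both annotated to the same Actb accession. The vehicle folds of the other Actb spots were 3.75 (spot 7764), 3.03 (7206), 2.40 (8197), 2.36 (21195), 2.20 (7222) and 1.24 (13443).

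The Actg1 spots differed in how their levels moved with time. Spot 18947 averaged 11.41 ± 0.26 in bulaquine livers and 11.95 ± 0.32 in vehicle livers at 6 h (SD, n = 4 each). It averaged 12.68 ± 0.57 in bulaquine livers and 13.00 ± 0.73 in vehicle livers at 12 h, and 12.34 ± 0.79 in bulaquine livers and 12.35 ± 0.35 in vehicle livers at 24 h (SD, n = 4 each). Spot 21680 stood at 11.79 ± 0.22 in bulaquine livers and 11.82 ± 0.22 in vehicle livers at 6 h, and at 12.12 ± 0.32 in bulaquine livers and 12.04 ± 0.38 in vehicle livers at 12 h. Its 24 h levels of 11.73 ± 1.33 in bulaquine livers and 11.96 ± 1.10 in vehicle livers held 1 low array, R2, at 9.79 in the bulaquine channel and 10.32 in the vehicle channel.

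**Figure D3:**
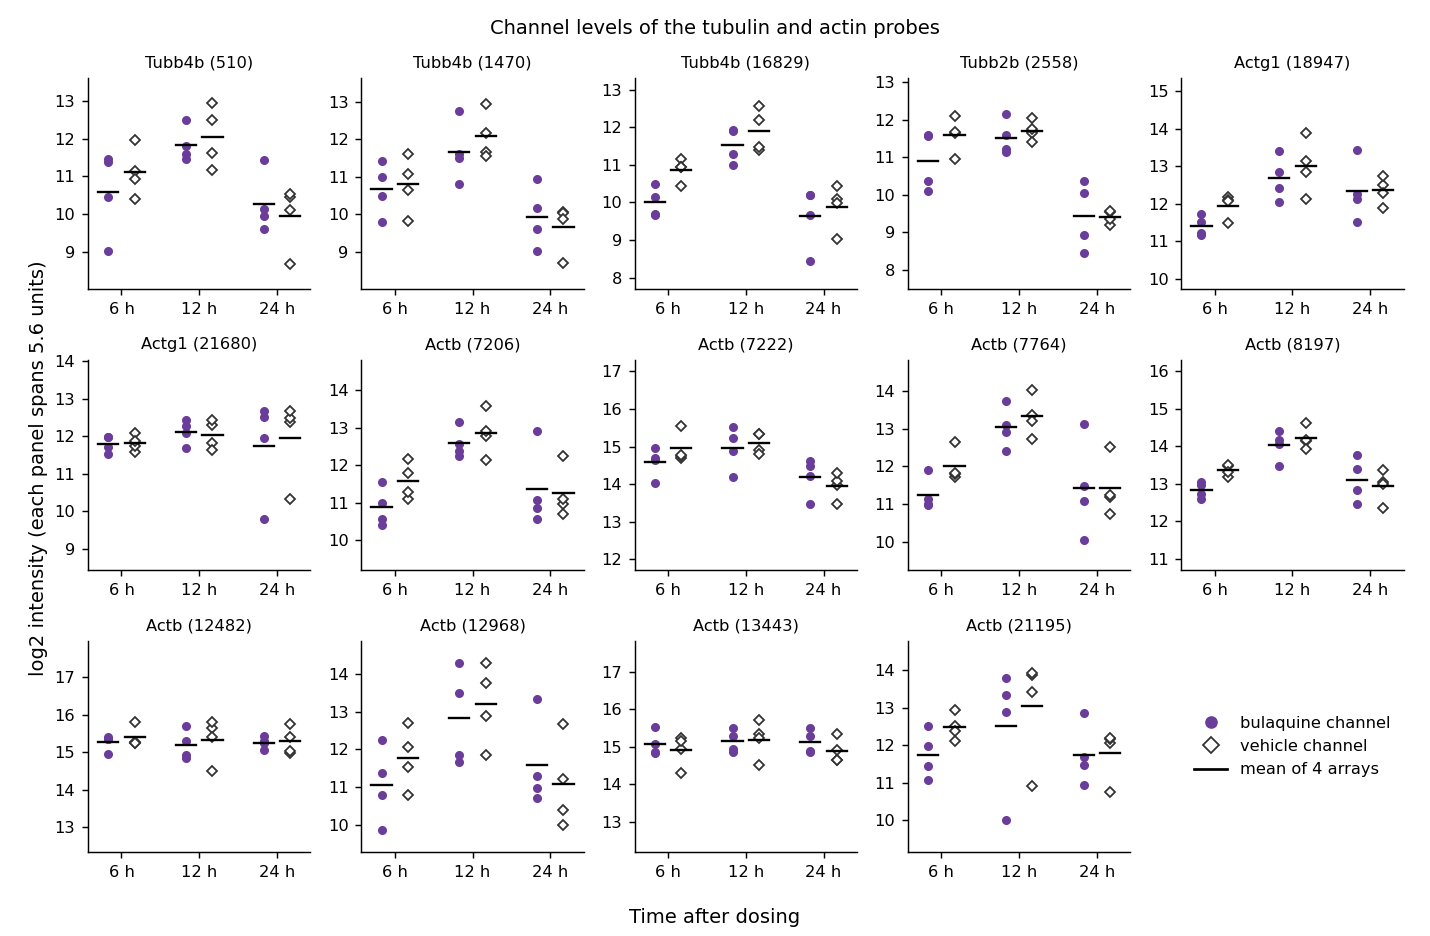
Log2 intensity (y axis) of each of the 14 probes in the bulaquine channel (filled circles, left) and the vehicle channel (open diamonds, right) at 6, 12 and 24 h, with the mean of 4 arrays as a bar. Each panel spans the same number of log2 units; the tubulin probes are highest at 12 h, and Actb spots 12482 and 13443 stay near their level.

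Spots of the same gene varied together over the 12 arrays to different degrees. These correlations of the dye-adjusted log2 ratio describe 12 arrays that share processing and time points, and no test is attached. The adjustment removes a dye effect held the same at all times, so a dye split that differs by time stays in the values. The 6 h arrays that chose the symbols are among the 12. The 5 dimmer Actb spots had a median Pearson r of 0.74 over their 10 pairs, from 0.36 to 0.88. Actg1 spot 18947 ran with them at a median r of 0.80, and with the other Actg1 spot at -0.15. The 3 brightest Actb spots had a median r of 0.13 with each other, and the 3 Tubb4b spots 0.23. The closest match of all 91 pairs was between genes, Tubb4b spot 510 with Actb spot 7222, at 0.98, a pair with dye effects of opposite sign.

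The genes most like each member were named by the same r over 12 arrays, from the brightest probe of each gene. Tubb4b spot 510 was most like Gstt3 (0.95), Arhgef12 (0.87), Slco2a1, Srpx2 (0.86 each) and Hat1 (0.85). Tubb2b spot 2558 was most like 2 Rps10 probes (0.92 and 0.88), Tmem205 (0.91), Lrrfip1 (0.88) and Syap1 (0.85). Actg1 spot 18947 was most like Cyb5r3 (0.89), Map3k3 (0.88), Mettl6 (0.86), St6galnac5 (0.85) and Ctsb (0.84). Actb spot 12482 was most like Kank2 (0.98), Slc30a9, Rps15a (0.86 each), Anxa7 (0.85) and Dhx9 (0.84). These are the highest r values over many probes, and how high chance alone would reach was not counted. The r does not compare the size of the ratios. At 24 h the neighbours of Actb spot 12482 ran from 0.26 (Rps15a) to 1.23 (Kank2), against -0.04 for the spot. Those of Actg1 spot 18947 ran from 0.004 (St6galnac5) to 0.29 (Cyb5r3), against -0.02.

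Related tubulins and actins were read from the brightest probe of each gene. Of 18 other tubulin genes listed, 3 were measured, and their 6 h log2 ratios were -0.25 (Tuba1b, an alpha-tubulin), -0.32 (Tuba4a, an alpha-tubulin) and -0.27 (Tubb5, a beta-tubulin). These 3 brightest probes were nearer 0 at 24 h, at -0.13, 0.22 and 0.11, and none was called at any time. Tubb5 had 7 probes, whose 6 h log2 ratios ran from -0.38 (spot 1238) to -0.05 (spot 5537), each below 0. Not all of these were nearer 0 at 24 h. Spot 21635 went from -0.28 at 6 h to -0.41 at 24 h and spot 46 from -0.15 to -0.40, while the rest were nearer 0. In the vehicle channel, the 12 h minus 24 h level difference was 1.21 for Tuba4a, 0.68 and 2.18 for the 2 Tuba1b probes, and -0.13 to 1.06 over the 7 Tubb5 probes.

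Of 10 other actins and actin-related genes listed, 5 were measured. Acta2, the actin of smooth muscle and activated stellate cells, had a 6 h log2 ratio of -0.67, and Actg2, the enteric smooth muscle actin, -0.73, each below 0 on 4 of 4 arrays. At 12 h they stood at 0.07 and -0.14, and at 24 h at 0.03 and 0.18, with limma adjusted p from 0.76 to 0.97. Their vehicle levels were higher at 12 h than at 24 h by 1.03 (Acta2) and 2.20 (Actg2) log2 units. The probes of Actr3 (Arp2/3 complex), Actr1a (dynactin) and Actl6a (chromatin remodelling) had 6 h log2 ratios of 0.01, 0.48 and 0.49. Actr1a and Actl6a were dim, at brightness percentiles 16.4 and 3.65, with SEs of 0.68 and 0.63.

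Over 7 cytoskeletal lists, 74 of 138 genes were measured and none was called at any time by limma. Their fitted log2 ratio was below 0 for 43 genes at 6 h, 39 at 12 h and 34 at 24 h, with medians of -0.06, -0.02 and 0.04. At 6 h the medians by list were -0.27 (other tubulins), 0.07 (tubulin folding), -0.06 (microtubule motors and binding proteins) and 0.01 (other actins). They were -0.02 (actin assembly), -0.05 (serum response factor targets) and -0.19 (intermediate filaments and lamins). The 14 probes had a 6 h median of -0.54, but these values chose the symbols, so it is not set against the lists. The tubulin folding list holds the chaperonin subunits that fold actin and tubulin, and 5 of its 13 measured genes were below 0 at 6 h, among them Cct8 at -0.54. In the actin assembly list 12 of 22 were below 0, from Wdr1 (-0.85), a cofactor of cofilin, to Rdx (0.19), which links filaments to the membrane.

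In the serum response factor list, 8 of 13 were below 0 at 6 h. Tagln2, an actin-binding protein, had the lowest value, -2.26, from a probe at brightness percentile 4.83, and Ccn1, a secreted matricellular protein, the highest, 0.74, at percentile 3.52. In the intermediate filament list 6 of 6 were below 0 at 6 h, from Des (-0.49), the desmin of muscle and stellate cells, to Krt18 (-0.01), a keratin of hepatocytes. At 24 h Arpc1a, a subunit of the Arp2/3 complex, had the lowest ratio of these lists, -3.36 with a limma adjusted p of 0.45, and was below 0 on 3 of 4 arrays.

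**Figure D4:**
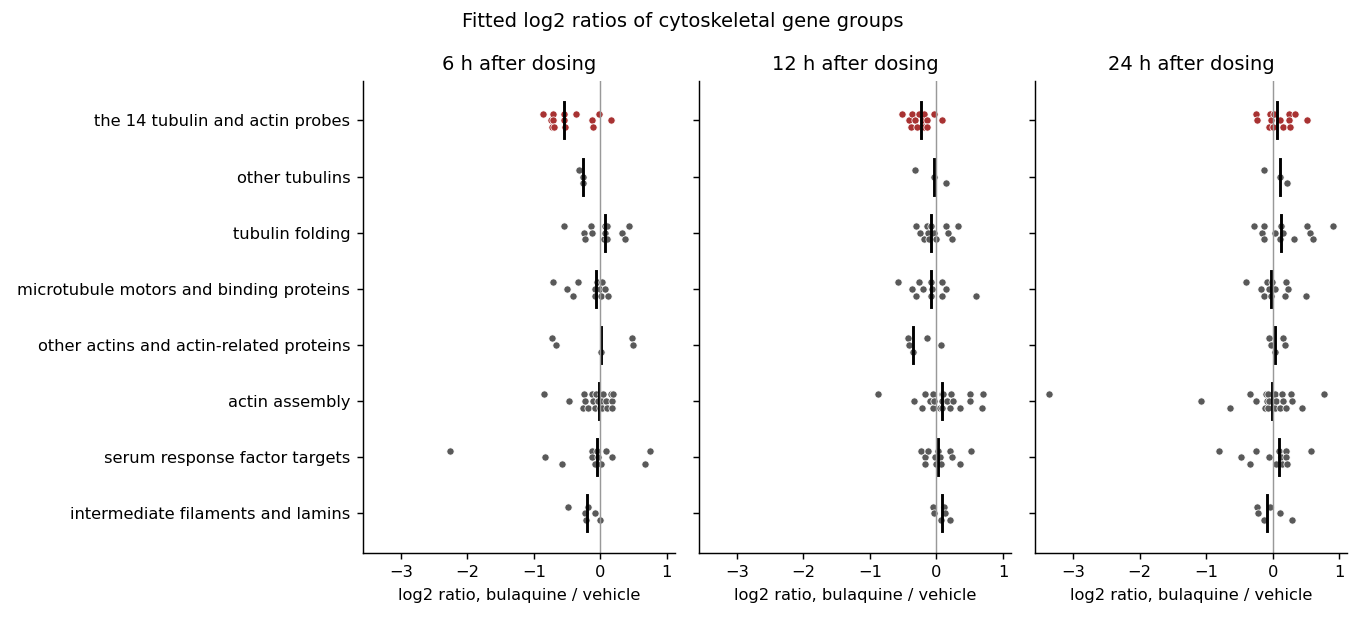
Fitted log2 ratios of bulaquine over vehicle (x axis) at 6, 12 and 24 h for the 14 tubulin and actin probes (red) and for genes of 7 cytoskeletal lists (grey, 1 probe per gene), with black bars at the medians. At 6 h the red points have a median of -0.54 and the lists have medians between -0.27 and 0.07. The 6 h values of the red points chose the symbols, so they are not set against the lists.

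Markers of the nonparenchymal liver cells, which express much actin and tubulin, were read beside the members. Of 13 Kupffer cell and macrophage markers listed, 3 were measured, and Csf1r, Lyz2 and Mpeg1 had 6 h log2 ratios of -0.67, -0.50 and -0.84. The median of the 3 was -0.67 at 6 h, -0.20 at 12 h and 0.27 at 24 h. Their mean log2 level per array at 6 h ranged from 10.49 to 11.19 for bulaquine and from 11.46 to 11.59 for vehicle. At 24 h it ranged from 10.63 to 11.60 for bulaquine and from 10.08 to 11.13 for vehicle. How often other sets of probes separate as these did at 6 h was not counted. None of the 3 was called. The part of macrophage content in the actin and tubulin ratios was not tested.

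Stellate cell and fibroblast markers were measured for 7 of 10 genes, Acta2 included, and 5 of 7 were below 0 at 6 h (median -0.31), 1 of 7 at 12 h and 3 of 7 at 24 h. Their mean level per array at 6 h ranged from 11.41 to 11.51 in the bulaquine channel and from 11.53 to 11.98 in the vehicle channel. The channels overlapped at 12 h, at 11.68 to 11.88 for bulaquine and 11.46 to 11.94 for vehicle. They also overlapped at 24 h, at 11.55 to 11.79 for bulaquine and 11.35 to 11.92 for vehicle. The share of other probe sets that separate as at 6 h was not counted. Of the endothelial markers 3 of 9 were measured, with a 6 h median of -0.07, and 1 of them, Eng, was below 0 on 4 of 4 arrays at -0.63. The measured markers of lymphocytes (2 of 9) and neutrophils (2 of 7) had 6 h medians of -0.01 and 0.24. The 1 measured erythrocyte marker, Car2, had -0.81 at 6 h, the 1 measured marker of proliferating cells, Top2a, had -0.05, and no bile duct marker was measured. Among 5 hepatocyte markers the 6 h median was -0.004, and Tdo2, the first enzyme of tryptophan breakdown, was called higher at 0.76. The part of stellate or endothelial cells in the members' ratios was not tested.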

How the data were processed

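Each of the 12 arrays held bulaquine and vehicle liver cDNA in Cy5 and Cy3. Per the file headers, the authors deposited foreground, background and background-corrected intensity and a signal-to-noise score for each spot and dye; the authors also deposited a table of log2 ratios. Per the series' design text, images were read with ImageQuant v5.0 and ArrayVision v8.0 and LOWESS-normalised in Avadis v4. The deposited log2 ratios correlated at 0.998 to 1.000 with those recomputed here. Array saturation limits and scanner gains are not given in the sources used here.

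Corrected intensities were normalised by global loess within each array and turned to bulaquine over vehicle in limma 3.58.1 (R 4.3.3). One fit (lmFit, eBayes) held a coefficient per time point and a dye effect per probe, with 8 residual degrees of freedom, over the 11749 probes above 0 in both dyes on all arrays, and p-values were adjusted by Benjamini-Hochberg over all of them. Levels were scaled between arrays by Aquantile. The fit was also run on simulated data with 200 seeded changed probes. The outcome is not given here, and nothing about the tubulin and actin probes is read from it.

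Spots were paired with the platform annotation by moving the 48 blocks of 480 spots between row-wise and column-wise order of a 12 by 4 grid. The annotation gives 1 symbol for 15114 spots, several for 206 and none for 7720; 14956 single symbols matched RefSeq by gene identifier. All 14 probes are named by spot number; other genes are shown by their brightest probe, up to 3 per direction and time within a list. One further gene list is not reported here. The members and gene lists were chosen with earlier results of these data known. Alternatives changed the background correction, normalisation, filters, dye effect, pairing, samples in the fit and block order. Same-labelled arrays of different time points had a median correlation of -0.15 (none over 0.1) after time means and a dye effect were removed. That removal pulls arrays of the same dye orientation below 0, so the value cannot decide whether the labels pair the arrays. The labels were not used as pairs in the reported fit.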

Additional observations from a re-analysis of the deposited data

Results flagged for a closer look

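At 24 h, Actb spot 7206 had log2 ratios of -0.12, -0.09, -0.01 and 0.66 on the F1, F2, R1 and R2 arrays, and the R2 value of 0.66 lay far from the other 3. It was 1 of 42 sets of 4 arrays examined, and chance marks about 1 in 20 such sets.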

How the results depend on the processing

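None of the 14 probes was called at 12 h or 24 h in the reported fit or under any of 24 alternatives, nor in the 24 h minus 12 h difference under any of 23. The 6 h median of the 14 was -0.54 and became -0.27 under normexp, and -0.65 to -0.48 with 1 array left out. Called probes at 6 h numbered 12, against 34 without background correction, 21 with loess within blocks, 26 without the dimmest probes, 6 with at least 3 of 4 arrays, 6 without a dye effect and 0 with the time point alone (2 to 9 with 1 array left out: 2 or 3 when the array dropped was from 6 h, and 5 without 12 h R1, 12 h R2 or 24 h F2). At 12 h they numbered 54, against 0 under normexp, 32 without a dye effect and 0 alone (37 to 59). At 24 h they numbered 56, against 193 without background correction, 151 under normexp, 148 without the dimmest probes, 14 without a dye effect and 0 alone (15 to 44 with 1 array left out: 36 without 12 h R1, and 23, 15, 22 and 37 without 24 h F1, F2, R1 and R2). With a replicate block by array label, 2 were called at 6 h and 24 at 24 h; with a replicate block by dye-swap pair, 0 at 6 h, 9 at 12 h and 0 at 24 h, from fewer values in the fit. Whether the array labels pair the samples was not settled, and neither block called any of the 14 at 12 h or 24 h.

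Some log2 ratios changed sign. At 12 h, normexp turned 6 of the 13 negative ratios positive, the largest being Actb spot 21195 (0.023, against -0.52). It gave 0.064 for Tubb4b spot 510 and 0.059 for Tubb2b spot 2558. At 24 h, Tubb2b spot 2558 was -0.015 under normexp, -0.14 with loess within blocks and -0.020 with median centring (-0.076 to 0.13 with 1 array left out, below 0 without F2 or R1). Without background correction, Actg1 spot 18947 was 0.028 and Actb spot 12482 0.026, and with 1 array left out they ran from -0.11 to 0.090 and from -0.093 to 0.0096, above 0 for Actg1 without F2 or R1 and for Actb without R2. With blocks not moved, 4 spots carrying the 4 symbols would be measured. The cause of these changes was not tested. With 4 arrays per time point precision is limited; tubulin signals had a median of 1.89 to 2.67 over noise.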
